A study of Mus musculus with 7 samples.

Results

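Mouse uterine tissue from between the implantation sites was compared with the myometrium and endometrium of the implantation site itself, within 1 experimental batch. The comparison took every specimen of batch 2 from gestation days 12 and 18. It holds 8 of the 28 specimens and 26392 of the 107443 cells of the series, with 12223 inter-implantation and 14169 implantation-site cells. The 8 specimens form 4 matched pairs, 1 for each combination of genotype and day. A specimen is 1 tissue sample as the authors' hashing calls identify it, summed over the pools.

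In the pregnant mouse the embryos sit at intervals along each uterine horn, and the wall between them carries no placenta. The endometrium lines the uterus and turns into decidua where an embryo attaches, while the smooth muscle of the myometrium surrounds it and contracts at birth. The comparison asks which cell populations differ in abundance between the wall beside an embryo and the wall between embryos. Kdm6b encodes a histone demethylase that removes repressive methyl marks from histone H3, and the series followed control mice and Kdm6b cKO mice through pregnancy.

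The groups were control and Kdm6b cKO mice, each at gestation days 12 and 18, and both sites of a pair carry the same genotype. The sources used here name no allele, Cre line, strain or age of the mice, nor say whether the sites of a pair came from the same mouse. Each site has 1 specimen per genotype and day, so the p-values measure only the spread between these specimens. The 8 specimens were hashed with lipid-conjugated oligonucleotides, mixed, and run as 3 pools that each hold all 8, so no pool is tied to a site.

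The deposited values describe each cell but hold no gene's expression. No marker of muscle, stroma, epithelium, endothelium or immune cells could therefore be read, and neither the labelled tissue nor the loss of Kdm6b could be checked. The authors' Louvain clusters keep their numbers and get no cell type name. Coarse clusters are those of resolution 0.2, of which 18 are present here, and fine clusters are those of resolution 2, of which 60 are present.

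The inter-implantation specimens had 1769 cells (control, day 12), 3855 cells (cKO, day 12), 4726 cells (control, day 18) and 1873 cells (cKO, day 18). Their implantation-site partners, in the same order, had 4033, 4087, 3518 and 2531 cells. Median UMIs per cell, the number of distinct RNA molecules counted, were 4733, 9978, 9040 and 6122 at the inter-implantation site. At the implantation site they were 7709, 9989, 8814.5 and 6752, so the control day 12 pair stood apart in depth. Where 4 values follow each other below, they stand in this order of pairs. Across the pools, 68 cell barcodes occurred in more than 1 pool, of which 11 fell within 1 specimen.

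The hashing signal separated the sites completely. Median hashing UMIs per cell were 239, 226, 212 and 192 in the inter-implantation specimens and 1163, 1095, 1356 and 1079 in their partners. The ranges did not overlap in any of the 3 pools or in any of the 10 coarse clusters compared. Cells with under 100 hashing UMIs made up 7.41%, 11.02%, 16.4% and 15.9% of the inter-implantation specimens, and there was 0% of them at the implantation site. In batch 3 the non-pregnant inter-implantation specimens had medians of 1662 and 1785, and those of days 5 and 8 had medians of 167 to 181. Within batch 2 the site and the hashing level cannot be told apart, and the part of the hashing level in the results below was not tested.

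**Figure D1:**
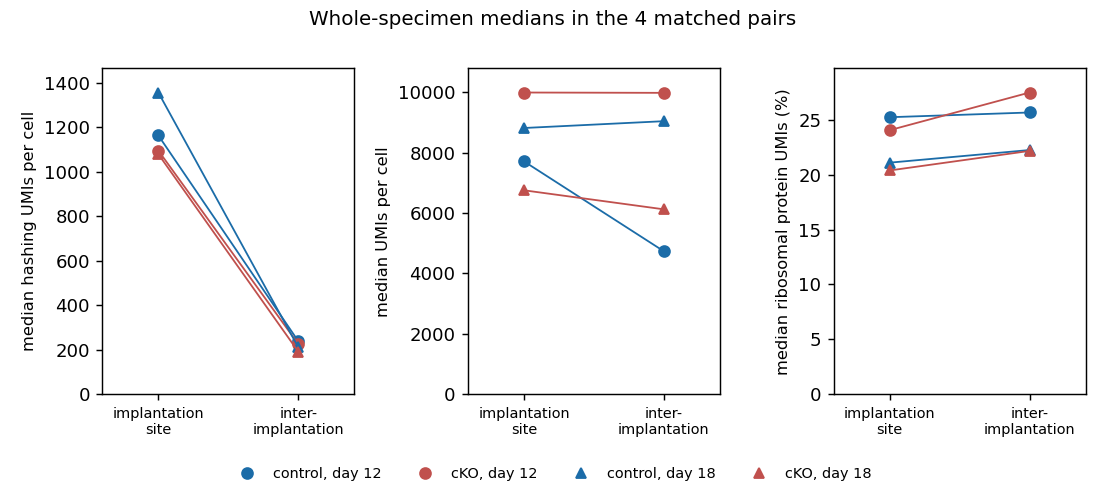
Median hashing UMIs per cell, median UMIs per cell and median percent of UMIs from ribosomal protein genes (vertical axes) at both sites (horizontal axis); each line joins the specimens of 1 pair, with colour for genotype and symbol for day. Hashing UMIs run from 1079 to 1356 at the implantation site and from 192 to 239 in inter-implantation tissue, while UMIs overlap and the ribosomal percent is higher in inter-implantation tissue in all 4 pairs.

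The makeup of the tissue by coarse cluster was compared first. No coarse cluster passed the test for a site difference (edgeR quasi-likelihood test, Benjamini-Hochberg adjusted p under 0.05), 0 of 16 or 0.0%, and 3 had an unadjusted p under 0.05. These were coarse cluster 10, with a lower share in inter-implantation tissue, and coarse clusters 13 and 14, with a higher share. Among all 18 coarse clusters, 4 lay in 1 direction in 4 of 4 pairs (22.2%), namely 10, 14, 16 and 17. With no site difference, the 4 pairs of a cluster would still share a direction in 2 of the 16 arrangements of site, or 0.13. The count of 4 of 18 was not tested against this rate. The sites' ranges did not overlap for 1 of the 18 (5.56%), coarse cluster 17. Coarse cluster 16 took 0.169 to 0.748% in inter-implantation tissue and 0.0744 to 0.237% at the implantation site, on 3 to 14 cells per specimen. In specimens outside the comparison it took 0.201 to 0.704% in inter-implantation tissue of days 14 and 16. At the implantation site it took 0.830 to 1.64% in batch 1 (n = 8) and 0% in batch 3 (n = 2). Batch and site are mixed there.

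Coarse cluster 10 is a small population, with a median of 11360 UMIs and 23.0% of its cells called in the G2M phase of the cell cycle. At the inter-implantation site it took 0.565% (control, day 12), 0.752% (cKO, day 12), 2.22% (control, day 18) and 0.694% (cKO, day 18) of the cells. At the implantation site it took 1.24%, 1.44%, 3.70% and 2.37% in the same order. Each inter-implantation specimen lay below its partner, by 1.66-fold to 3.42-fold, although the ranges overlap because of the control day 18 pair, where both sites were high. The share was lower in 12 of 12 comparisons of a pair within a single pool. The pools split the same specimens, so within-pool comparisons here and below repeat the 4 pairs and add no replicates.

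The mean share of coarse cluster 10 was 1.06% ± 0.780 (SD, n = 4) in inter-implantation tissue and 2.19% ± 1.12 (SD, n = 4) at the implantation site. The fitted log2 difference was -1.11 (SE 0.32) and did not pass (adjusted p = 0.0769, edgeR). It ranged from -1.31 to -0.90 over 24 alternative analyses and passed in 3 of them. Exact 95% intervals, which cover counting error only, were 0.271 to 1.04% and 0.922 to 1.63% for the control day 12 pair and 0.370 to 1.18% and 1.81 to 3.04% for the cKO day 18 pair. In specimens outside the comparison, the 4 inter-implantation specimens of days 14 and 16 of the same batch had 0.752 to 1.71%. The implantation-site specimens had 2.00 to 7.15% in batch 1 (n = 8) and 1.29 to 2.56% in batch 3 (n = 2), where batch and site are mixed.

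At fine resolution, cluster 10 was made up mainly of fine cluster 22, with 13.99% of its cells called G2M, and of the strongly cycling fine cluster 47, with 72.9%. Both were lower in inter-implantation tissue in 4 of 4 pairs. For fine cluster 47 the pairs held 5 against 12, 5 against 17, 16 against 14 and 0 against 1 cells, and within pools it was lower in 7 and higher in 3 of 12 comparisons. Fine cluster 22 took 0.283%, 0.623%, 1.88% and 0.694% in inter-implantation tissue and 0.942%, 1.03%, 3.30% and 2.33% at the implantation site. Its log2 difference was -1.21 (SE 0.50, adjusted p = 0.569, edgeR), and it was lower in 12 of 12 within-pool comparisons.

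Coarse cluster 14 showed the opposite direction. Its cells are unusual, with a median of 3901 UMIs from only 389 genes, 4.23% ribosomal protein UMIs and 0.580% mitochondrial UMIs, and 40.7% of them were called G2M. It took 2.04% (control, day 12), 4.20% (cKO, day 12), 0.741% (control, day 18) and 1.33% (cKO, day 18) of the cells in inter-implantation tissue. At the implantation site it took 0.818%, 1.35%, 0.455% and 0.948%. Every pair was higher in inter-implantation tissue, by 1.41-fold to 3.12-fold, and at both sites the cKO specimen lay above the control specimen of its day. Outside the comparison this order of genotypes did not hold throughout. Inter-implantation tissue of batch 2 had 0.810% in cKO against 2.45% in control mice on day 14, and 1.13% against 0.751% on day 16. At the implantation site, cKO was lower on days 14 and 16 of batch 1 and higher on its days 12 and 18 and in batch 3.

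The mean share of coarse cluster 14 was 2.08% ± 1.51 (SD, n = 4) in inter-implantation tissue and 0.892% ± 0.368 (SD, n = 4) at the implantation site. The fitted log2 difference, 1.07 (SE 0.34), had an adjusted p of 0.0769 (edgeR). In 23 alternatives it ranged from 0.51 to 1.78 and did not pass in any. Its main part, fine cluster 37, followed it, with 2.04%, 4.02%, 0.444% and 1.23% in inter-implantation tissue and 0.694%, 1.17%, 0.313% and 0.751% at the implantation site. The log2 difference of fine cluster 37 was 1.16 (SE 0.51, adjusted p = 0.569, edgeR). Inter-implantation specimens of days 14 and 16 had 0.751 to 2.45% of coarse cluster 14 (n = 4), which overlaps the 0.462 to 1.45% of the implantation-site specimens of batch 1 (n = 8).

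**Figure D2:**
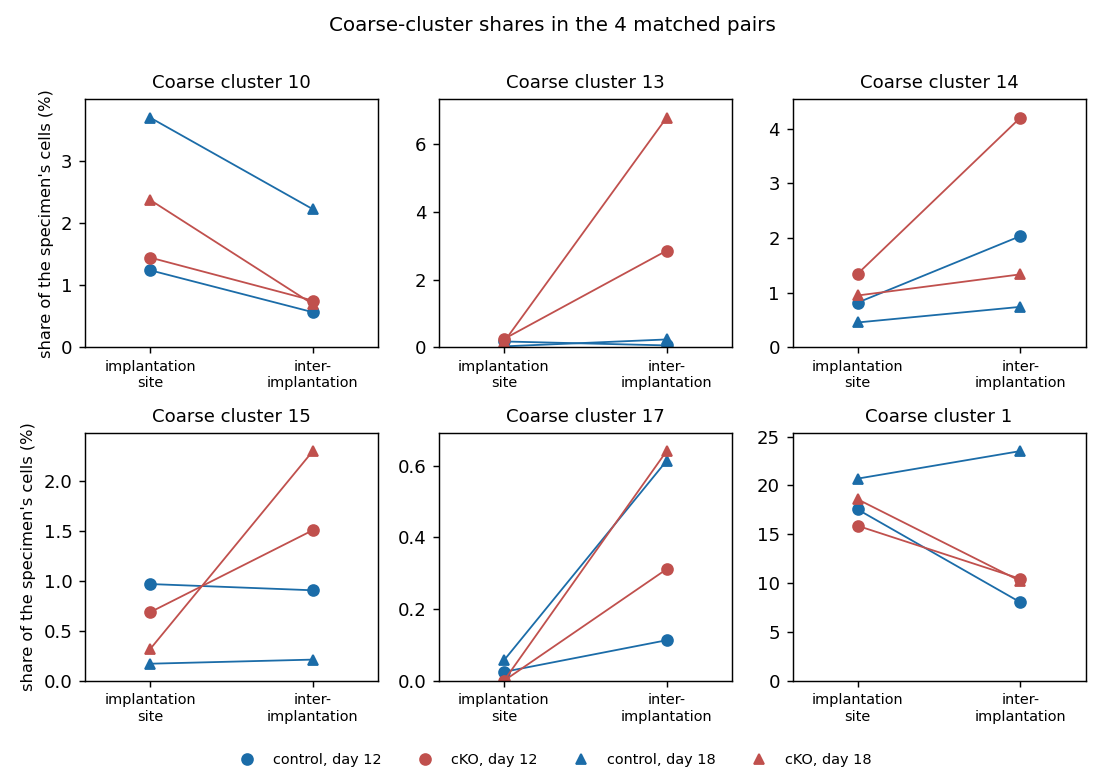
Share of a specimen's cells (vertical axis, percent, from 0) at both sites for coarse clusters 10, 13, 14, 15, 17 and 1; each line joins the specimens of 1 pair, with colour for genotype and symbol for day. Clusters 10, 14 and 17 slope 1 way in all 4 pairs, cluster 13 rises steeply in the cKO pairs, to 2.85% and 6.78%, and cluster 1 is lower in inter-implantation tissue in 3 of 4 pairs.

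Coarse cluster 13 has the highest medians of the coarse clusters, with 25300 UMIs and 4417 genes. In cKO mice it took 2.85% of the inter-implantation cells against 0.245% at the implantation site on day 12. On day 18 it took 6.78% against 0.158%, which is 42.9-fold. In control mice it took 0.0565% against 0.174% on day 12 and 0.233% against 0.0284% on day 18, values that rest on 1 to 11 cells per specimen. Of the 271 cells of the cluster here, 237 came from the 2 cKO inter-implantation specimens.

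The log2 site difference of coarse cluster 13 was 3.17 (SE 0.95, adjusted p = 0.0769, edgeR). It passed in 7 of 23 alternatives. Among these were cKO specimens only (4.32, SE 0.72, adjusted p = 0.000314, edgeR) and leaving out the control day 12 pair (4.19, SE 0.59, adjusted p = 8.35e-07, edgeR). That pair is the only 1 with a lower share in inter-implantation tissue (log2 -1.62). Both fits hold fewer pairs than the main fit and borrow part of their estimate of spread from the other clusters. Without either cKO pair the site difference did not pass, and the estimates without 1 pair ranged from 2.15 to 4.19. The test of whether the site difference itself depends on genotype gave a log2 value of 3.58 (SE 1.29, adjusted p = 0.149, edgeR), which did not pass. The limma test of the same term on logit shares called it. Outside the comparison, the inter-implantation specimens of days 14 and 16 had 3.64% and 4.97% of coarse cluster 13 in cKO and 0.146% and 0.137% in control mice, and the implantation-site specimens of batch 1 had 0.295 to 0.815% (n = 8).

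Coarse cluster 17 was the only one whose site ranges did not overlap. It took 0.113%, 0.311%, 0.614% and 0.641% of the inter-implantation cells (2, 12, 29 and 12 cells). At the implantation site it took 0.0248%, 0%, 0.0569% and 0% (1, 0, 2 and 0 cells). With a count of 0, the exact 95% interval reached up to 0.0902% in the cKO day 12 specimen and 0.146% in the cKO day 18 specimen. With 7.25 cells on average it lay under the minimum of 10 cells for the test.

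Fitted without that minimum, coarse cluster 17 had a fitted log2 difference of 3.999 (SE 0.73), with an adjusted p of 0.0103 (edgeR), a value that depends on the treatment of the 0 counts. Counted within single pools it was higher in inter-implantation tissue in 11 of 12 comparisons. Outside the comparison it took 0.175 to 0.842% in the inter-implantation specimens of days 14 and 16, 0.0257 to 0.441% in the implantation-site specimens of batch 1 and 0 to 0.129% in those of batch 3. Fine cluster 53 holds the same 58 cells and was the only fine cluster with ranges that did not overlap (1.67% of 60).

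Coarse cluster 15, another population with little RNA (median 1151 UMIs, 8.30% ribosomal protein UMIs), was higher in inter-implantation tissue in both cKO pairs. In that tissue it took 0.905%, 1.505%, 0.212% and 2.30%, and at the implantation site 0.967%, 0.685%, 0.171% and 0.316%. The cKO pairs were 2.20-fold and 7.26-fold higher in inter-implantation tissue, while the control pairs were 0.935-fold and 1.24-fold. The fitted log2 difference, 1.05 (SE 0.53), had an adjusted p of 0.326 (edgeR), and the test of a dependence on genotype gave an adjusted p of 0.307 (edgeR).

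The large coarse cluster 1 averaged 13.04% ± 7.06 (SD, n = 4) in inter-implantation tissue and 18.2% ± 2.02 (SD, n = 4) at the implantation site. It took 8.03% against 17.5%, 10.4% against 15.9% and 10.2% against 18.6% in the control day 12, cKO day 12 and cKO day 18 pairs. In the control day 18 pair it was higher in inter-implantation tissue, at 23.5% against 20.7%. The fitted log2 difference, -0.60 (SE 0.32), had an adjusted p of 0.326 (edgeR). Outside the comparison, the inter-implantation specimens of days 14 and 16 had 13.1 to 16.6% of coarse cluster 1 (n = 4), inside the 10.8 to 17.97% of the implantation-site specimens of batch 1 (n = 8). Cells of coarse cluster 1 also carried the lowest hashing signal in inter-implantation tissue, with medians of 105 to 140.5 per specimen against 949 to 1070 at the implantation site.

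The remaining 11 tested coarse clusters had log2 differences from -0.54 to 0.74, and 8 of these 11 changed direction in at least 1 of up to 24 alternatives. Coarse cluster 0, the largest, averaged 38.3% ± 8.51 (SD, n = 4) in inter-implantation tissue and 39.4% ± 7.20 (SD, n = 4) at the implantation site. The strongly cycling coarse cluster 12 (75.7% G2M calls) took 1.02%, 4.20%, 0.148% and 0.427% in inter-implantation tissue and 1.91%, 2.30%, 0.654% and 0.395% at the implantation site, higher in both cKO pairs and lower in both control pairs. Its dependence on genotype did not pass (log2 2.02, SE 0.96, adjusted p = 0.231, edgeR).

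**Figure D3:**
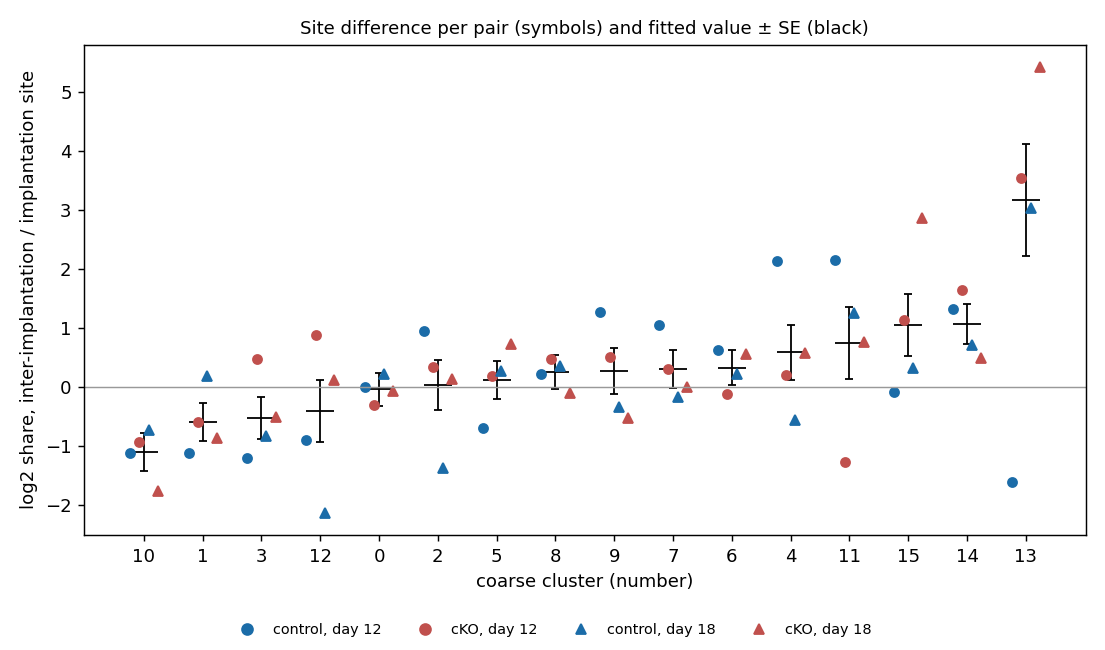
Log2 ratio of the inter-implantation to the implantation-site share (vertical axis) for the 16 tested coarse clusters (horizontal axis, ordered by fitted value); symbols are the 4 pairs, and black marks with bars are the edgeR estimate ± SE. Cluster 10 lies below 0 and cluster 14 above 0 in every pair, while the pairs of cluster 13 run from -1.62 to 5.42.

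The 60 fine clusters were compared next. No fine cluster passed (0 of 45 tested, 0.0%, edgeR), and 3 had an unadjusted p under 0.05. A total of 10 of 60 fine clusters (16.7%) lay in 1 direction in 4 of 4 pairs. The rate of 0.13 given above for a cluster with no site difference stands beside this count, which was not tested against it. Fine clusters 4, 8, 20, 22, 47 and 57 were lower in inter-implantation tissue, and 32, 37, 48 and 53 were higher. The lower ones belong to coarse cluster 0 (4 and 57), coarse cluster 1 (8 and 20) and coarse cluster 10 (22 and 47). Fine clusters 47, 53 and 57 lay under the minimum of 10 cells for the test, with 8.75, 7.25 and 1.625 cells on average.

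The parts of coarse cluster 0 were compared in turn. Fine cluster 4, one of its larger parts with a median of 13180 UMIs, took 2.83%, 3.45%, 6.26% and 6.35% of the cells in inter-implantation tissue and 5.26%, 7.83%, 12.5% and 8.93% at the implantation site. It was lower in inter-implantation tissue in 4 of 4 pairs and in 12 of 12 within-pool comparisons. Its log2 difference was -0.89 (SE 0.46, adjusted p = 0.569, edgeR). Inter-implantation specimens of days 14 and 16 had 5.15 to 11.5% of fine cluster 4 (n = 4), against 1.19 to 7.26% in the implantation-site specimens of batch 1 (n = 8) and 8.20 to 8.40% in those of batch 3 (n = 2).

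As a share of coarse cluster 0, fine cluster 4 held 9.62%, 9.17%, 12.5% and 17.3% in inter-implantation tissue and 17.7%, 16.9%, 28.5% and 23.1% at the implantation site. The log2 difference within the coarse cluster was -0.84 (SE 0.26), with an unadjusted p of 0.0207 (edgeR). It did not pass over the 41 fine clusters tested within their coarse cluster (adjusted p = 0.712, edgeR), of which 0 were called (0.0%) and 1 had an unadjusted p under 0.05.

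The other large parts of coarse cluster 0 differed between the pairs in size or direction. Fine cluster 0 held 59.4% of coarse cluster 0 in inter-implantation tissue against 22.4% at the implantation site in the control day 18 pair, and 16.8% against 26.3% in the cKO day 18 pair. Fine cluster 13 held 36.5% against 22.7% in the cKO day 12 pair and 1.73% against 7.19% in the control day 12 pair. Fine cluster 5 held 8.46% against 25.3%, 25.6% against 42.1% and 3.27% against 14.7% in the control day 12, cKO day 12 and control day 18 pairs, and 10.7% against 8.19% in the cKO day 18 pair. Fine cluster 6 held 11.7%, 12.2%, 14.6% and 15.4% in inter-implantation tissue and 20.1%, 8.40%, 18.4% and 20.4% at the implantation site, higher there in 3 of 4 pairs. Fine cluster 2 held 32.3%, 7.15%, 4.71% and 23.3% in inter-implantation tissue and 18.7%, 3.43%, 7.48% and 7.68% at the implantation site, lower there in 3 of 4 pairs. Fine cluster 29, a cluster with 7.75% ribosomal and 11.8% mitochondrial UMIs, held 23.7% against 2.51% in the control day 12 pair, whose inter-implantation specimen had the lowest median UMIs of all 8.

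Among the largest fine clusters, the log2 differences were 0.47 (SE 0.54) for cluster 0, -1.08 (SE 0.54) for cluster 5, -0.94 (SE 0.53) for cluster 3 and -0.28 (SE 0.46) for cluster 6. Adjusted p-values of these clusters ran from 0.569 to 0.895 (edgeR). Fine cluster 28, which holds nearly all of coarse cluster 13, had a fitted log2 difference of 2.99 (SE 1.03), with an adjusted p of 0.569 (edgeR).

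Whether the site difference depended on genotype or on day was tested next. By genotype, 0 of 16 coarse clusters (0.0%) and 1 of 45 fine clusters (2.22%) passed (edgeR), with 3 and 5 at an unadjusted p under 0.05. By day, 0 of 16 coarse (0.0%) and 0 of 45 fine clusters (0.0%) passed, with 0 and 1 at an unadjusted p under 0.05. The cluster that passed was fine cluster 17, a part of coarse cluster 3 whose cells are among the richest in RNA (median 27540 UMIs, 35.0% called G2M).

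In control mice fine cluster 17 was lower in inter-implantation tissue, at 1.70% against 7.69% on day 12 and 0.106% against 1.51% on day 18. In cKO mice it was higher in inter-implantation tissue, at 1.401% against 0.758% on day 12 and 1.87% against 0.435% on day 18. The exact 95% intervals of the sites did not overlap in the control day 12, control day 18 and cKO day 18 pairs, and overlapped in the cKO day 12 pair (1.05 to 1.82% against 0.516 to 1.07%). The difference between the site effects was 4.32 on the log2 scale (SE 1.20, adjusted p = 0.0243, edgeR), higher in cKO.

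Specimens outside the comparison did not show the low cKO level at the implantation site throughout. In batch 1, fine cluster 17 took 10.06%, 2.98%, 3.73% and 1.26% of the implantation-site cells in cKO mice on days 12, 14, 16 and 18, and 8.30%, 2.36%, 0.367% and 0.375% in control mice. In batch 3, on day 12, it took 0.646% in cKO and 2.53% in control mice. The inter-implantation specimens of batch 2 held 1.05% (cKO) and 1.34% (control) on day 14 and 1.25% and 0.205% on day 16. On each day of batch 1 the cKO specimen lay above the control specimen, opposite to the order at the implantation site in batches 2 and 3.

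The direction of this term for fine cluster 17 held without any 1 pair, but the call did not. It ended without the cKO day 12 pair (log2 4.98, adjusted p = 0.415), without the cKO day 18 pair (3.77, adjusted p = 0.939) and without the control day 18 pair (3.61, adjusted p = 0.0929, all edgeR). In the control day 12 implantation-site specimen, 310 of the 512 cells of coarse cluster 3 were fine cluster 17, and the median UMIs of coarse cluster 3 there were 19658.5. The other 7 specimens had medians of 1451 to 14079.5 UMIs in coarse cluster 3.

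The size of the site difference was set beside those of day and genotype within the batch. The composition distance between specimens that differ in 1 factor is the percent of cells that would have to change cluster to make them alike. Over coarse clusters it averaged 17.3% ± 4.49 (SD, 4 pairs) for site, 20.5% ± 8.12 (SD, 4 pairs) for genotype and 24.0% ± 9.68 (SD, 4 pairs) for day. Pools of 1 specimen differed by 6.74% ± 1.66 (SD, 24 pairs of pools), a value that holds no difference between mice or dissections. No specimens here share site, genotype and day, so the distance between like specimens is unknown and is part of each distance above. The site distances, from 12.9 to 23.5%, overlapped those of genotype (11.3 to 30.8%) and day (17.5 to 38.3%).

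Over fine clusters the distances averaged 33.0% ± 6.86 (SD) for site, 35.7% ± 13.6 (SD) for genotype, 44.8% ± 11.2 (SD) for day and 11.8% ± 2.75 (SD) between pools of 1 specimen. Averaging the signed differences of the 4 pairs left a common site difference of 10.9% of cells over coarse clusters (exact two-sided permutation of site within pairs, p = 0.25). Over fine clusters it left 22.2% (exact permutation p = 0.13). With 4 pairs there are 16 arrangements, and 0.13, or 2 of the 16, is the smallest p they can give.

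**Figure D4:**
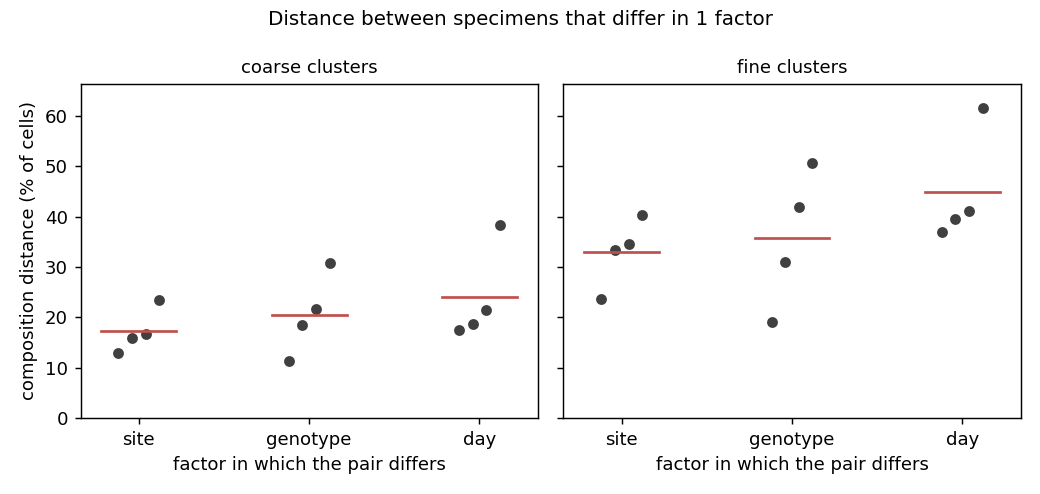
Composition distance (vertical axis, percent of cells) between specimens that differ only in site, genotype or day (horizontal axis), over coarse and fine clusters; each point is 1 of 4 specimen pairs and each line the mean of the 4. Site distances average 17.3% over coarse and 33.0% over fine clusters, and the points of the 3 factors overlap.

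Whole-specimen values of the cells were then compared. The median percent of UMIs from ribosomal protein genes was 25.7%, 27.5%, 22.3% and 22.2% in inter-implantation tissue and 25.2%, 24.1%, 21.1% and 20.4% at the implantation site. It was higher in inter-implantation tissue in 4 of 4 pairs, by 1.70 percentage points on average, with site means of 24.4% ± 2.63 and 22.7% ± 2.32 (SD, n = 4). The exact permutation p was 0.13, the smallest possible, and 0.563 after adjustment over 6 measures. At both sites and in both genotypes, the day 18 specimen lay below the day 12 specimen.

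The difference was also taken at equal composition. This used the mean in place of the median, and only cells of the 10 coarse clusters with at least 20 cells in each specimen. In these cells the difference in the mean ribosomal percent averaged 1.42 points over the pairs and was positive in 3 of 4. Weighted to the same coarse composition in every specimen it was 1.04 points, again positive in 3 of 4. The control day 12 pair was the exception, at -0.914 points before and -1.44 points after weighting.

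Other whole-specimen measures were compared in the same way, and no measure passed. Median UMIs averaged 7468 ± 2454 in inter-implantation tissue and 8316 ± 1398 (SD, n = 4) at the implantation site (exact permutation p = 0.375). S calls averaged 10.2% ± 2.56 and 9.19% ± 1.51 (exact permutation p = 0.25). G2M calls were 14.1%, 17.8%, 5.12% and 7.48% in inter-implantation tissue and 14.03%, 11.03%, 6.14% and 8.22% at the implantation site (exact permutation p = 0.875). The largest gap was in the cKO day 12 pair, and without that pair the mean difference changed from 1.28 to -0.555 points. Adjusted values over the 6 measures ran from 0.563 to 0.875, and the calls come from scores of cells that differ in depth.

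Within coarse clusters, values were compared for the 10 clusters with at least 20 cells in each specimen, which hold 92.2% of the cells. UMIs per cell differed in 0 of 10 clusters (0.0%, limma), with 1 at an unadjusted p under 0.05. That was coarse cluster 6, with medians of 1213, 3729, 9005 and 916 UMIs in inter-implantation tissue and 3436, 4834.5, 11217.5 and 7553.5 at the implantation site. It was lower in inter-implantation tissue in 4 of 4 pairs (log2 -1.31, SE 0.51, adjusted p = 0.470, limma), with the widest gap in the cKO day 18 pair.

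Coarse cluster 0 also had fewer UMIs in inter-implantation tissue in 4 of 4 pairs, at 6075, 12235.5, 10824 and 9111 against 10226, 12808, 12300 and 10798 (log2 -0.31, SE 0.18, adjusted p = 0.470, limma). Coarse cluster 8 had more in 4 of 4 pairs, at 11227, 11023, 10038 and 12386 against 9120, 10656, 7914 and 8833 (log2 0.29, SE 0.15, adjusted p = 0.470, limma). Over the 10 clusters the fitted difference in UMIs was below 0 in 7 and above 0 in 3. In coarse cluster 3, UMIs were higher in inter-implantation tissue in 3 of 4 pairs, and the difference did not pass (log2 0.30, SE 0.83, adjusted p = 0.810, limma). Only the control day 12 pair went the other way, with medians of 2672 against 19658.5 UMIs. Without that pair the difference passed (log2 1.36, adjusted p = 0.00378, limma).

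The ribosomal percent differed in 0 of 10 clusters (0.0%, limma), with 0 at an unadjusted p under 0.05. The fitted difference was above 0 in 9 of the 10, from 0.17 to 2.42 points, and -1.99 points in coarse cluster 6 (SE 1.67 in each). Coarse cluster 0 was the only 1 with 4 of 4 pairs higher in inter-implantation tissue, at 25.1%, 28.4%, 24.6% and 23.5% against 24.7%, 24.7%, 22.4% and 22.3% (1.85 points, adjusted p = 0.617, limma). The gap was widest in the cKO day 12 pair and narrowest in the control day 12 pair.

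**Figure D5:**
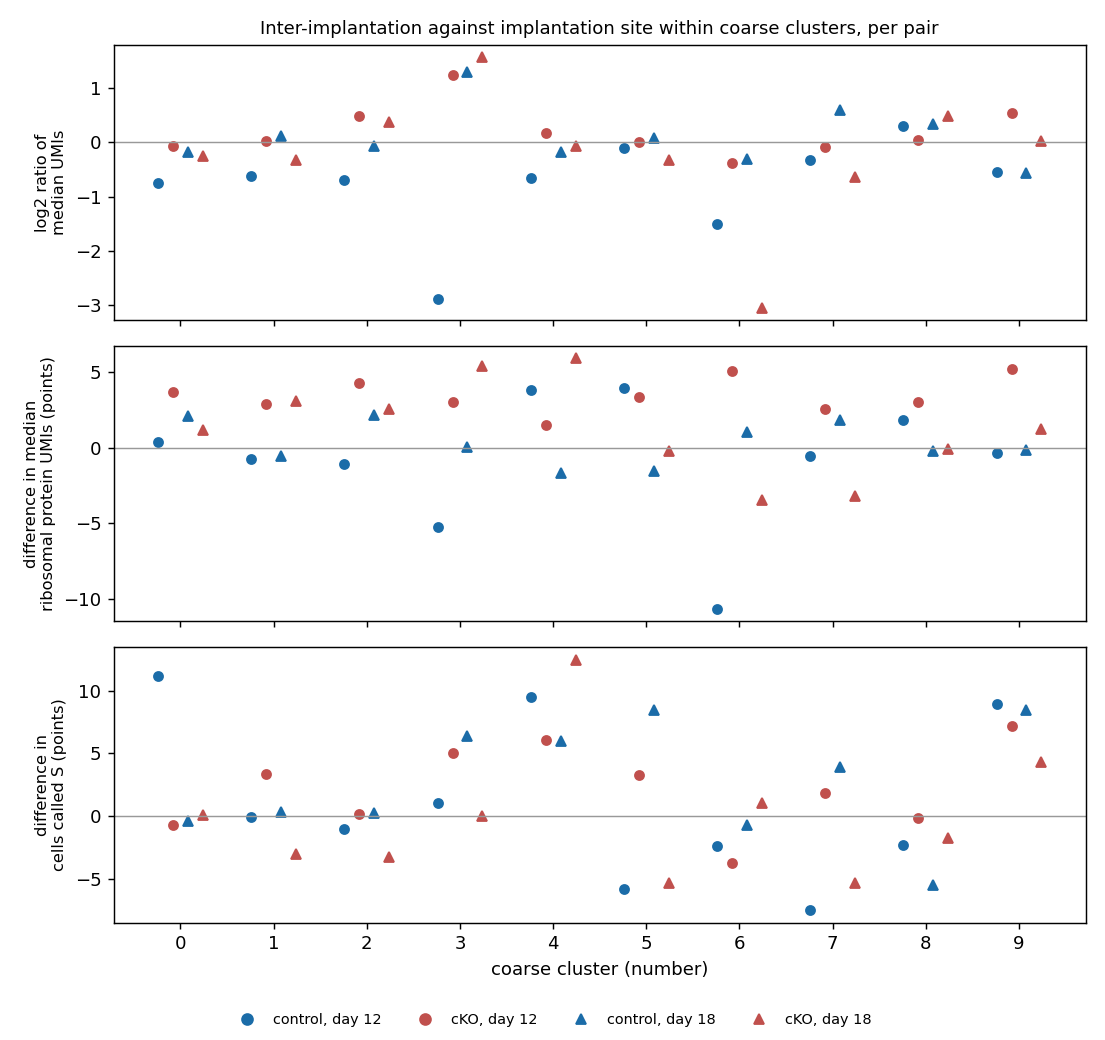
Site difference per pair (inter-implantation against implantation site, symbols by genotype and day) for the 10 coarse clusters with at least 20 cells in each specimen: log2 ratio of median UMIs, difference in median ribosomal protein percent and difference in the percent of cells called S. Clusters 4 and 9 lie above 0 for S calls in all 4 pairs, and cluster 6 lies below 0 for UMIs in all 4.

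The share of cells called in S phase, when DNA is copied, differed in 2 of 10 clusters (20%, limma), both higher in inter-implantation tissue. In coarse cluster 9 it was 22.9%, 14.3%, 14.7% and 23.8% in inter-implantation tissue and 13.9%, 7.14%, 6.25% and 19.5% at the implantation site. Its log2 odds were 0.87 higher (SE 0.20, adjusted p = 0.0390, limma). In coarse cluster 4 it was 18.2%, 25%, 19.1% and 22.2% in inter-implantation tissue and 8.70%, 18.9%, 13.04% and 9.76% at the implantation site, with log2 odds 0.84 higher (SE 0.20, adjusted p = 0.0390, limma). Every pair lay in the same direction in both clusters, and the exact permutation p of each was 0.13, the smallest possible.

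These calls rest on few and shallow cells. Coarse cluster 4 has a median of 545 UMIs per cell and had 2 to 10 S cells per specimen. Coarse cluster 9 has a median of 2588 UMIs and had 2 to 19. Median UMIs were higher in inter-implantation tissue in 1 of 4 pairs for cluster 4 (log2 -0.18, SE 0.19) and in 2 of 4 for cluster 9 (log2 -0.14, SE 0.25). The part of depth in these S calls was not tested. Both calls ended when genotype and day entered as separate terms instead of as pairs (adjusted p = 0.253 for cluster 4 and 0.409 for cluster 9, limma). The call of coarse cluster 4 ended without any 1 of the 4 pairs, and that of coarse cluster 9 without any except the cKO day 18 pair. Coarse clusters 4 and 9 could not be compared in a window of equal depth (5000 to 15000 UMIs), which left them 0 to 38 cells per specimen.

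Coarse cluster 3 had more S calls in inter-implantation tissue in 4 of 4 pairs as well (log2 odds 0.58, SE 0.25, adjusted p = 0.228, limma), and coarse cluster 8 fewer in 4 of 4 (-0.29, SE 0.18, adjusted p = 0.427, limma). G2M calls differed in 0 of 10 clusters (0.0%, limma), and S and G2M calls together in 0 of 10 (0.0%, limma), each with 0 at an unadjusted p under 0.05. In coarse cluster 0, G2M calls were 5.19%, 3.06%, 0.382% and 1.17% in inter-implantation tissue and 1.25%, 0.898%, 0.927% and 0.717% at the implantation site. They were higher in 3 of 4 pairs (log2 odds 0.83, SE 0.55, adjusted p = 0.765, limma).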

How the data were processed

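Single uterine cells, hashed by specimen, were measured with a droplet 3' kit. The authors deposited the UMI count, gene count and hashing UMI count per cell. These values are whole numbers and were read as counts without normalization. The authors also deposited the percent of UMIs from mitochondrial and ribosomal protein genes, cluster numbers and phase calls. Cell Ranger, Seurat and build mm10 are named in the submitters' processing notes, with no version or setting given in the sources used here. Filtering of cells and their assignment to specimens were the authors' own steps, doublets were not called again, and without gene values cells could not be thinned to equal depth.

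Cells were counted per cluster and specimen and tested with edgeR 4.0.16 (R 4.3.3), with total cells as library size, no composition factor, untrended dispersion and the genotype-by-day pair as block (3 residual degrees of freedom, 2 for the terms by genotype or day). Clusters needed 10 cells on average. Medians of UMIs and ribosomal percent, and log2 odds of phase calls with 0.5 cells added to each side, were tested within coarse clusters with limma 3.58.1. Other single values used exact two-sided permutation of site within pairs. Adjusted p-values are by Benjamini-Hochberg, with a threshold of 0.05. Exact permutation p-values are unadjusted unless stated otherwise.

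Fine clusters are named where they passed, where 4 of 4 pairs lay in 1 direction with a log2 size of at least 1, or as the 5 largest; fine clusters 2, 8, 13, 17, 20, 28, 29, 32, 47, 48, 53 and 57 were chosen after their values were seen. The members, lists and tests were chosen with earlier results of these data known. Alternatives were other tools (DESeq2 1.42.0), filters, designs, cells and left-out pairs or pools. Added after seeing the data were the abundance trend, the fits without the 25% of cells lowest in hashing UMIs, and leaving out pairs for the terms by genotype and day. Another 28 annotation columns were not used.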

Additional observations from a re-analysis of the deposited data

Results flagged for a closer look

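A specimen stood far from the other specimens of its site in 7 of 66 groups of 4 specimens, a distance that chance alone gives in about 1 of 20 separate groups. These groups are not separate, since fine clusters lie within coarse ones and shares of a specimen sum to the whole. Each group also mixes both genotypes and both days, and its fine clusters were chosen from these data. That rate therefore does not carry over to the count of 7. In inter-implantation tissue the control day 18 specimen was the high one for coarse cluster 1 (23.5%), coarse cluster 10 (2.22%), fine cluster 0 (29.6%) and fine cluster 3 (14.6%). The control day 12 specimen was the high one for coarse cluster 11 (4.52%), and the cKO day 18 specimen for coarse cluster 16 (0.748%). At the implantation site the control day 12 specimen was far above the others for fine cluster 17 (7.69%). The site difference of fine cluster 17 differed between the genotypes (4.32 on the log2 scale), and its call ended without 3 of the 4 pairs.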

How the results depend on the processing

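With the pair as block, 0 coarse clusters were called. The count was 1 with DESeq2 on total cells, 2 with its own size factors, 1 with the abundance trend, 1 without the count filter, 1 with at least 50 cells on average, 1 without the cells of coarse cluster 0, 1 on day 18 only, 1 in cKO only, and 2 without the 25% of cells lowest in hashing UMIs (coarse clusters 1 and 10). Leaving out 1 pair gave 0 to 2 calls, with coarse clusters 13 and 15 called without the control day 12 pair. The other alternatives gave 0, and 8 of 16 coarse clusters kept their direction in every alternative that tested them (up to 24).

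For fine clusters the count moved from 0 to 1 with either DESeq2 fit, in cKO only (fine cluster 28 in each) and without the filter (fine cluster 53). Leaving out 1 pair gave 0 to 1. In cKO only, fine cluster 0 reversed to -0.27. The term by genotype had 1 coarse and 2 fine calls with limma, and 0 to 4 fine calls without 1 pair. The term by day had 0 to 1 coarse calls without 1 pair.

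The 2 S-phase calls became 0 with additive genotype and day, and 0 to 1 without 1 pair. The count was also 0 in the 5000 to 15000 UMI window, with at least 50 cells and without the cells lowest in hashing UMIs, where clusters 4 and 9 had too few cells to be tested. Leaving out 1 pair gave 0 to 1 calls each for UMIs (coarse cluster 3) and G2M (coarse cluster 0). It moved the whole-specimen G2M difference between -0.555 and 2.05 points, a reversal without the cKO day 12 pair. The composition distance between sites was 33.0% over fine clusters, where smaller clusters are counted apart. The cause of the other changes was not tested. Clusters under about 10 cells per specimen are limited by counting.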
